A study of Homo sapiens with 32 samples.

Results

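The ATP-binding cassette (ABC) efflux transporters examined here were ABCB1, ABCG2, ABCC1, ABCC2, ABCC3, ABCC4, ABCC5 and ABCC10, 8 of the 35238 genes measured, chosen by name as pumps linked to drug efflux. All 8 passed the filter on low values (over 1 read per 1000000 counted, CPM, in at least 2 libraries). Their RNA was measured in bulk RNA of 4 endometrial cancer cell lines, as 32 libraries with 2 replicates in each of 16 groups. Ishikawa is CTNNB1-wildtype, and Ishikawa-S33Y, SNGM and HEC265 are CTNNB1-mutated (CTNNB1 encodes beta-catenin). Each line received vehicle (0.1% DMSO), paclitaxel, SM08502 or the combination of both drugs for 24 h. Each drug was given at the dose that lowered viability of that line by 50%. Paclitaxel was given at 11 nM to Ishikawa, 6 nM to Ishikawa-S33Y, 11.7 nM to SNGM and 5.6 nM to HEC265. SM08502, an inhibitor of the CDC-like kinases that phosphorylate splicing factors, was given at 80 nM to Ishikawa, 85 nM to Ishikawa-S33Y, 350.7 nM to SNGM and 149 nM to HEC265. Ishikawa-S33Y is labelled only by its name and its CTNNB1-mutated genotype, and whether it is 1 clone is not given in the sources used here. Cells were plated in duplicate, so p-values measure the spread between duplicate platings. For each gene that spread was estimated jointly over all 16 groups, so libraries of other lines and treatments also affect the p-value of a comparison. Dose differed by line, and so did RNA input (350 ng for Ishikawa, 500 ng for the others), so dose, RNA input and line cannot be told apart.

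ABC transporters use ATP to move substrates across membranes. ABCB1 encodes P-glycoprotein, the pump best known for exporting taxanes from cells, and ABCC10 encodes a pump that also carries taxanes. ABCG2 exports many drugs but is regarded as a poor taxane pump. The ABCC genes encode multidrug resistance proteins, which carry organic anions, conjugates and nucleotides, and ABCC2 has been described as a carrier of taxanes. ABCB1 has been described as a target of beta-catenin and its TCF partners, and the study's title concerns taxane therapy with CLK inhibition in CTNNB1-mutated disease.

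Start-site sequences from RefSeq (GRCh38.p14, 250 bases before to 50 after a start) were found for 6 of the 8 members, in 12 windows. ABCB1 and ABCC2 are shown because they fell the most after SM08502 in HEC265, ABCC4 because its level differed widely between lines, and ABCC5 because it rose while most members fell. Capitals mark matches, on either strand, to the CCAAT box (CCAAT), the GC box (GGGCGG), TCF/LEF sites (CTTTG followed by A or T and again by A or T), the antioxidant response element (TGACNNNGC) and the TATA box (TATAAA). Each sequence is 5′ to 3′ on the strand of its gene: ABCB1 at chr7:87600835-87601134 on the minus strand, ABCC2 at chr10:99782390-99782689 on the plus strand, ABCC4 at chr13:95301402-95301701 on the minus strand and ABCC5 at chr3:184017835-184018134 on the minus strand.
ABCB1: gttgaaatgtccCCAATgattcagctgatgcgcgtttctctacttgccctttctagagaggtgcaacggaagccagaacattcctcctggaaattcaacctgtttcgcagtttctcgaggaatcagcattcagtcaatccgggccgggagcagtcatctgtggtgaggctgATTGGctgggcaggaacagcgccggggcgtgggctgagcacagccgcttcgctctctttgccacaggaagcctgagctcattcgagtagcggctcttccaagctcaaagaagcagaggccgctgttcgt
ABCC2: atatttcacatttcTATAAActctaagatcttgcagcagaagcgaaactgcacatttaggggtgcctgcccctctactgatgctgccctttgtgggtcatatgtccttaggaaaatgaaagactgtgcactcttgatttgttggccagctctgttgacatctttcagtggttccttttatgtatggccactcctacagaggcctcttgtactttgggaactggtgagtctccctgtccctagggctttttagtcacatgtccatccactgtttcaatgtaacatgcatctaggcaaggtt
ABCC4: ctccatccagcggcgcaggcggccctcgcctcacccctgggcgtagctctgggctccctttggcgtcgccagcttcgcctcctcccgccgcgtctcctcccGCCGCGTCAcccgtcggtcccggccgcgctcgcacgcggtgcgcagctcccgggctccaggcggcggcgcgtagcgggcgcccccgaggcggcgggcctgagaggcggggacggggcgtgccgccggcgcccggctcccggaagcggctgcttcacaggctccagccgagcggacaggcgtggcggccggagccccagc
ABCC5: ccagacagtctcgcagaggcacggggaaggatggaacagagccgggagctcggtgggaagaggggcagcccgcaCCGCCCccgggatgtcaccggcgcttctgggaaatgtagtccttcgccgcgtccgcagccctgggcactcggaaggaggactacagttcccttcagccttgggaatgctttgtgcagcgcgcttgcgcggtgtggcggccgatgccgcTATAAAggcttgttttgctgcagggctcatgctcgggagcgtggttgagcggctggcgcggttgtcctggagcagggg
Counting from the first printed base, the ABCB1 window held CCAAT boxes from base 13 to 17 and, on the other strand, from 172 to 176. Another ABCB1 window, at chr7:87713246-87713545 on the minus strand, is not printed and held no match. The ABCC2 window held a TATA box from base 15 to 20. The ABCC5 window held a GC box from base 75 to 80 and a TATA box from base 223 to 228. The ABCC4 window held an antioxidant response element from base 102 to 110. The core of the xenobiotic response element (GCGTG) was searched too and is not in capitals. That core lay in the printed ABCB1, ABCC4 and ABCC5 windows, and in 36.5% of RefSeq windows of the same length. Over 35114 RefSeq windows of the same length, 34.6% held a CCAAT box, 45.0% a GC box, 13.8% a TCF/LEF match, 13.3% an antioxidant response element and 11.5% a TATA box. No TCF/LEF match lay in these 4 windows, and 1 of the 12, an ABCG2 window, held one. A match is a description of the letters only.

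Whole reads could be recovered from the deposited values, and 30 libraries held 13.0 to 34.1 M reads (M, 1000000). The other libraries, replicate 2 of the combination in Ishikawa-S33Y and in SNGM, held 2.99 and 1.61 M, where 3 reads, taken here as the floor, equal 1.00 and 1.87 CPM. All 7 epithelial markers averaged at least 1 CPM in each line, with summed levels of 993 to 3581 CPM. Stromal markers summed to 715 to 1167 CPM in Ishikawa-S33Y, mostly COL1A1, to 31.9 to 196 CPM in Ishikawa and to at most 11.2 CPM in SNGM and HEC265, where LUM was at 0 in all HEC265 libraries. Immune markers summed to at most 5.86 CPM and endothelial markers to at most 11.1 CPM. A length score, which compares long transcripts with those of ribosomal protein genes (mean log2 level of the first minus the second), was lowest in Ishikawa (-2.95 to -1.38), followed by Ishikawa-S33Y (-1.74 to -1.04), HEC265 (-0.94 to -0.54) and SNGM (-0.63 to 0.09), so it moved with the line. As a covariate beside the group means, its slope came from replicate differences within groups, so it cannot separate the score from the line.

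On vehicle, the lines carried different sets of transporter RNAs. Ishikawa had the highest ABCB1 and ABCG2, HEC265 the highest ABCC2, and SNGM the highest ABCC1, ABCC3, ABCC4, ABCC5 and ABCC10 by mean. Differences were tested with limma on log2(CPM + 1) over all 17011 genes that passed the filter, with Benjamini-Hochberg adjustment over those genes, and differences with an adjusted p under 0.05 were called. Of 48 tests of the 8 members over 6 pairs of lines, 39 were called. Line differences were common among all genes: 48.3% of those tested were called for Ishikawa-S33Y against Ishikawa, 66.8% for SNGM and 63.3% for HEC265 against Ishikawa, 60.8% for SNGM and 58% for HEC265 against Ishikawa-S33Y, and 54.9% for HEC265 against SNGM. Re-centring each library on its median, or quantile normalization, moved the median of all genes by 0.14 and 0.15 for SNGM against Ishikawa and by 0.21 and 0.27 for HEC265 against Ishikawa, so small differences between lines depend on the scaling. In bulk RNA, fewer expressing cells and less RNA per cell cannot be told apart.

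ABCB1 (chromosome 7, 87503017 to 87713295) was at 40.2 and 36.9 CPM in the vehicle replicates of Ishikawa, 20.6 and 21.8 in Ishikawa-S33Y, 8.28 and 10.4 in HEC265 and 2.27 and 1.26 in SNGM. No libraries of neighbouring lines in this order overlapped. The log2 difference from Ishikawa was -3.86 (SE 0.33) in SNGM, with a limma adjusted p of 1.26e-09, and the ratio of means was 21.9-fold. HEC265 lay between them, -1.94 (SE 0.33) from Ishikawa and 1.92 (SE 0.33) above SNGM, with adjusted p of 2.94e-05 and 4.52e-05. HEC265 was below Ishikawa-S33Y by a change of -1.11 (adjusted p = 0.00696 by limma), which missed the threshold without HEC265 vehicle replicate 1 (-0.96, adjusted p = 0.0623) and with a pseudocount of 0.1 (adjusted p = 0.202). Ishikawa-S33Y was below Ishikawa by a change of -0.83 (SE 0.33, limma adjusted p = 0.0436). That call was lost in 16 of 43 alternative settings, including leaving out any of the 4 vehicle libraries compared (adjusted p of 0.0948 to 0.158), while with the length score as a covariate the difference was -1.34 (adjusted p = 0.0107).

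ABCG2, the breast cancer resistance protein gene (chromosome 4, 88090264 to 88231626), was covered by at most 39 reads in any vehicle library. It was at 2.40 and 2.23 CPM in Ishikawa on vehicle, from 39 and 29 reads, and at 1.18 and 1.34 CPM in Ishikawa-S33Y, from 24 and 32 reads. SNGM held 1 and 3 reads and HEC265 1 and 0, all at or under the floor of 3 reads, which equals 0.0879 to 0.134 CPM in those libraries. ABCG2 was thus detected in the lines of Ishikawa origin and not above the floor in the other lines on vehicle. Between Ishikawa-S33Y and Ishikawa the log2 difference was -0.55 (SE 0.14, limma adjusted p = 0.00198), and it was lost with a pseudocount of 0.1 (-0.83, adjusted p = 0.0839).

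ABCC1, which encodes an exporter of glutathione and glucuronide conjugates (chromosome 16, 15949143 to 16143053), was at 53.2 and 55.3 CPM in Ishikawa on vehicle. It was at 140 and 143 CPM in SNGM, 124 and 117 in HEC265 and 115 and 112 in Ishikawa-S33Y. Ishikawa stood below the other lines and no library overlapped. Relative to Ishikawa the log2 difference was 1.05 (SE 0.19, limma adjusted p = 8.83e-05) in Ishikawa-S33Y, 1.37 (adjusted p = 1.29e-06) in SNGM and 1.14 (adjusted p = 1.62e-05) in HEC265. With the length score as a covariate these became 0.50 (adjusted p = 0.0111), 0.36 (adjusted p = 0.155) and 0.34 (adjusted p = 0.117), so only the difference of Ishikawa-S33Y stayed called. The other 3 lines were not called different from each other, with adjusted p of 0.147 to 0.713, except SNGM from Ishikawa-S33Y after median re-centring (0.43, adjusted p = 0.0137).

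ABCC4, an exporter of cyclic nucleotides and prostaglandins (chromosome 13, 95019835 to 95301451), differed in every pair of lines. It was at 31.8 and 28.9 CPM in Ishikawa on vehicle, 65.1 and 63.1 in Ishikawa-S33Y, 208 and 199 in HEC265 and 430 and 370 in SNGM. Each line stood above the previous one in this order without overlap. SNGM exceeded Ishikawa 13.2-fold (log2 difference 3.68, SE 0.15, limma adjusted p = 4.56e-15), and Ishikawa-S33Y exceeded Ishikawa 2.11-fold (1.06, SE 0.15, adjusted p = 8.82e-06). The difference of Ishikawa-S33Y from Ishikawa was 1.14 with the length score as a covariate.

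ABCC2, a canalicular pump of bile and drug conjugates (chromosome 10, 99782640 to 99852594), was at 70.8 and 74.5 CPM in HEC265 on vehicle. It was at 10.4 and 11.5 CPM in SNGM, 3.39 and 4.22 in Ishikawa and 2.22 and 1.89 in Ishikawa-S33Y. All 6 pairs were called, and HEC265 exceeded Ishikawa-S33Y 35.4-fold (log2 difference 4.59, SE 0.17, limma adjusted p = 3.88e-16). The smallest of the 6 differences was between Ishikawa-S33Y and Ishikawa (-0.65, SE 0.17, adjusted p = 0.00267).

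ABCC3, a basolateral exporter of bile salts and glucuronides (chromosome 17, 50634881 to 50692253), was at 53.8 and 54.3 CPM in SNGM on vehicle and at 11.9 to 18.9 CPM in the 6 vehicle libraries of the other lines. SNGM exceeded Ishikawa 3.75-fold (log2 difference 1.84, SE 0.19, limma adjusted p = 1.52e-08), or by 1.12 with the length score as a covariate. Ishikawa was not called different from HEC265 (0.34, adjusted p = 0.115) or from Ishikawa-S33Y (adjusted p = 0.377). The difference of HEC265 from Ishikawa was 0.56 after median re-centring, where it was called (adjusted p = 0.00300), and -0.23 with the length score as a covariate. HEC265 was called above Ishikawa-S33Y (0.55, adjusted p = 0.0145), but not without HEC265 vehicle replicate 1 (adjusted p = 0.0689) or Ishikawa-S33Y vehicle replicate 2 (adjusted p = 0.0793).

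ABCC5, an exporter of nucleotide analogues and cyclic nucleotides (chromosome 3, 183919934 to 184017884), was at 66.5 and 66.3 CPM in SNGM on vehicle and at 16.7 and 15.9 in HEC265. Ishikawa at 32.2 and 34.5 and Ishikawa-S33Y at 42.6 and 39.5 lay between them and were not called different from each other (0.29, SE 0.13, limma adjusted p = 0.0704), although they were without either Ishikawa paclitaxel library (adjusted p of 0.0315) and after median re-centring (0.0226). SNGM exceeded HEC265 4.07-fold (the log2 difference of HEC265 from SNGM was -1.96, SE 0.13, adjusted p = 2.05e-11).

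ABCC10, an ABCC pump that carries taxanes (chromosome 6, 43427541 to 43451994), was at 17.6 and 18.3 CPM in SNGM on vehicle, 11.2 and 11.1 in Ishikawa, 11.2 and 9.56 in Ishikawa-S33Y and 5.88 and 4.94 in HEC265. SNGM exceeded HEC265 3.31-fold (the log2 difference of HEC265 from SNGM was -1.57, SE 0.30, limma adjusted p = 1.67e-04). Ishikawa was not called different from Ishikawa-S33Y (adjusted p = 0.817) or SNGM (0.64, adjusted p = 0.0708). The difference of SNGM from Ishikawa was called without either SNGM combination library (adjusted p of 0.0125) or either Ishikawa paclitaxel library (0.0467), and it was -0.85 with the length score as a covariate. HEC265 was called below Ishikawa (-0.93, adjusted p = 0.0111), and this was lost under quantile normalization (-0.39) and without HEC265 vehicle replicate 2 (-0.82, adjusted p = 0.0726). The differences of Ishikawa-S33Y from SNGM and from HEC265 were likewise lost without Ishikawa-S33Y vehicle replicate 1 (adjusted p of 0.0705 and 0.124) and in other settings.

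**Figure D1:**
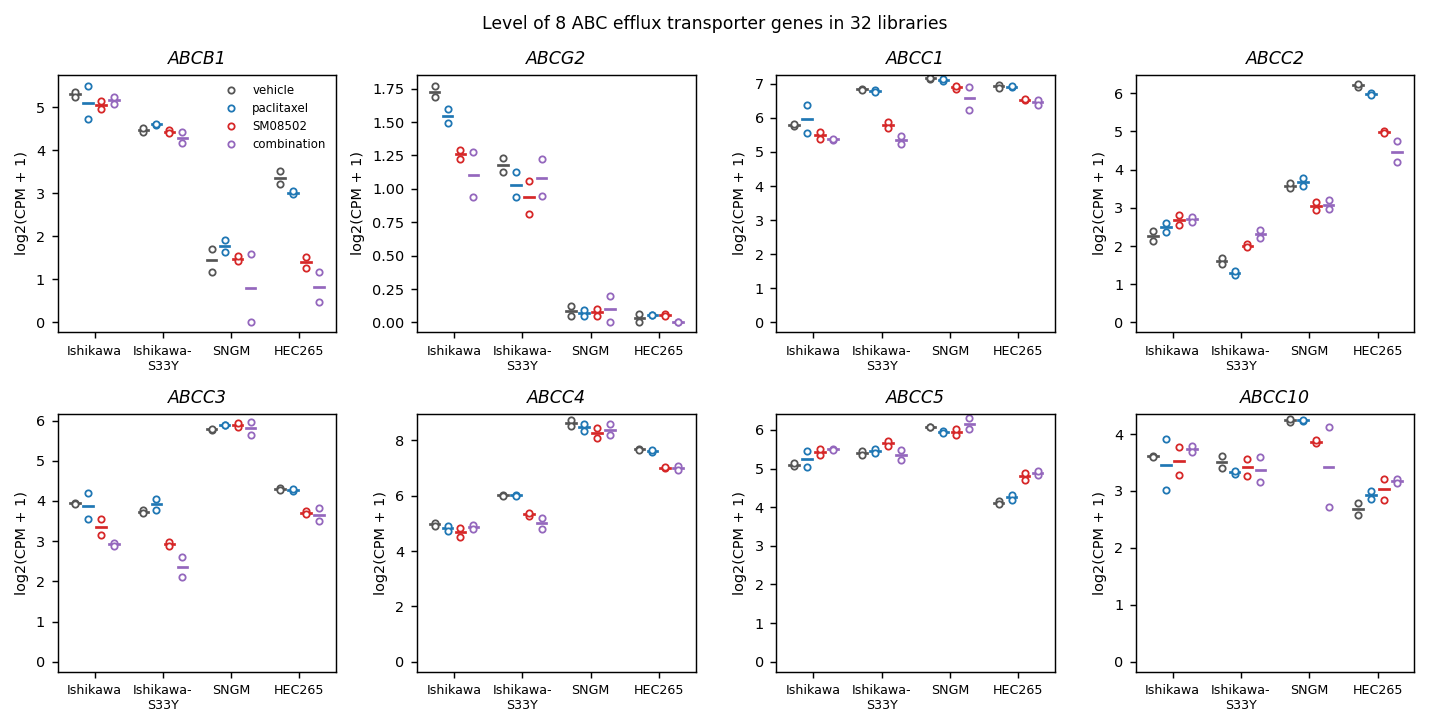
Level of each transporter gene as log2(CPM + 1) on the vertical axis, by cell line on the horizontal axis, with circles for the 2 replicates of each treatment and a bar for their mean. ABCB1 falls in HEC265 from 8.28 and 10.4 CPM on vehicle to 1.87 and 1.41 CPM on SM08502, and ABCG2 lies near 0 in SNGM and HEC265.

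The paclitaxel doses formed a high pair, 11 nM for Ishikawa and 11.7 nM for SNGM, and a low pair, 6 nM for Ishikawa-S33Y and 5.6 nM for HEC265. The question was whether a pump's basal level followed the dose. None of the 8 members had all 4 vehicle libraries of the high-dose lines above, or all 4 below, those of the low-dose lines. Over the 17011 genes tested, 7.86% lay all above and 6.68% all below. For ABCB1 the high-dose lines were the extremes, with Ishikawa at 40.2 and 36.9 CPM and SNGM at 2.27 and 1.26 CPM. ABCC2 was highest in HEC265, which received the lowest dose, and ABCC1 and ABCC4 were lowest in Ishikawa and highest in SNGM. ABCC10 came closest: its lowest high-dose library, at 11.1 CPM, lay just under the highest low-dose library, at 11.2 CPM. It separated without Ishikawa vehicle replicate 2, without Ishikawa-S33Y vehicle replicate 1 and under quantile normalization. With 4 lines, no relation between level and dose could be tested.

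**Figure D2:**
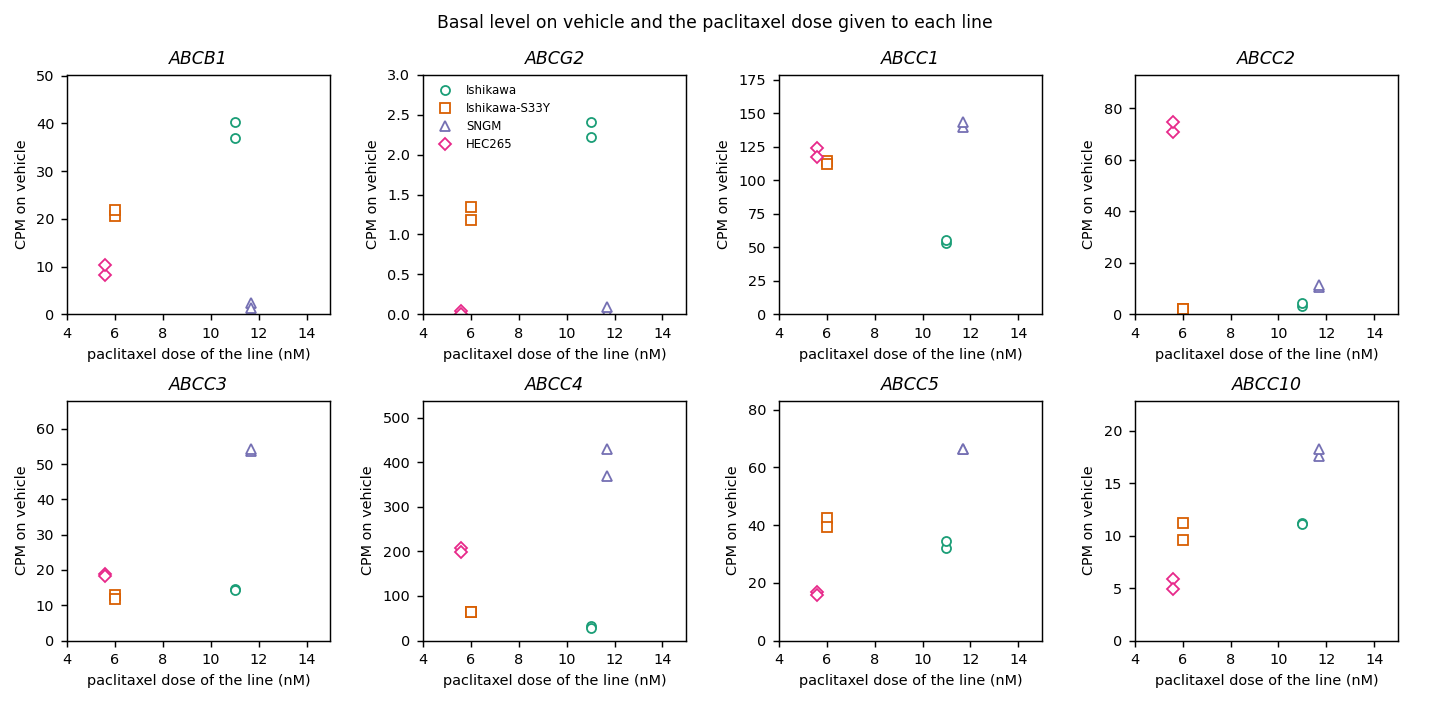
Vehicle level of each transporter gene in CPM on the vertical axis against the paclitaxel dose given to that line in nM on the horizontal axis, with 1 symbol for each of the 2 vehicle replicates of a line. For ABCB1 the lines given 11 and 11.7 nM are at the top and the bottom of the range, and for none of the 8 genes do all symbols of the high-dose lines lie on 1 side of those of the low-dose lines.

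After paclitaxel alone, no change of a transporter was called in any line. Of 32 tests of the members, limma called 0, while 0.0176% of all genes were called in SNGM, 0.0118% in Ishikawa, 0.00588% in HEC265 and 0% in Ishikawa-S33Y. Likewise 0 of the 32 member tests had an unadjusted p under 0.05, a level at which the share of all genes is not given here. ABCB1 was at 43.8 and 25.6 CPM in Ishikawa on paclitaxel, 6.85 and 7.33 in HEC265, 23.0 and 23.6 in Ishikawa-S33Y and 2.77 and 2.11 in SNGM. The replicates on paclitaxel overlapped those on vehicle in Ishikawa and SNGM, lay above them in Ishikawa-S33Y and lay below them in HEC265. The log2 change of ABCB1 was 0.33 in SNGM, 0.13 in Ishikawa-S33Y, -0.20 in Ishikawa and -0.35 in HEC265 (SE 0.33 for each). The estimates for ABCC10 lay between -0.18 and 0.25 (SE 0.30), and none passed the test. Over all members and lines the estimates ran from -0.35 to 0.33, and their 95% intervals from -1.04 to 1.03, so the widest intervals in a single line reached a 2-fold change. For the mean over lines the intervals ran from -0.37 to 0.33, and 0 of 8 members and 0% of all genes were called. In Ishikawa the paclitaxel replicates disagreed, with ABCC1 at 81.3 and 46.2 CPM, ABCC3 at 17.3 and 10.7 and ABCC10 at 14.0 and 7.11, and their length scores were -1.38 and -2.95. The part of the length score in this was not tested.

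After SM08502, ABCB1, ABCC2, ABCC3 and ABCC4 fell and ABCC5 rose in HEC265, ABCC1, ABCC3 and ABCC4 fell in Ishikawa-S33Y, and ABCC3 and ABCG2 fell in Ishikawa. Most tests of a member in a single line did not pass. Of 32 member tests 10 were called by limma, 9 lower and 1 higher. An unadjusted p under 0.05 was reached in 16, a level at which the share of all genes is not given here. HEC265 accounted for 5 of the 10 calls, Ishikawa-S33Y for 3, Ishikawa for 2 and SNGM for 0. Over all genes 14.7% were called in HEC265 (9.27% higher, 5.39% lower), 29.1% in Ishikawa-S33Y (18.5% and 10.6%), 15.2% in Ishikawa (6.5% and 8.68%) and 7.86% in SNGM (3.8% and 4.06%). The median log2 change of the 8 members was -0.49 in HEC265, -0.16 in Ishikawa-S33Y, -0.27 in Ishikawa and -0.19 in SNGM, and that of all genes was 0.07, 0.11, 0.00 and 0.00. SM08502 doses differed by line, and the doses cannot be told apart from the lines.

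In HEC265, ABCB1 was at 8.28 and 10.4 CPM on vehicle and 1.87 and 1.41 CPM on SM08502, from 186 and 270 reads to 42 and 39. Both libraries on SM08502 lay far below both on vehicle. The ratio of means was 5.70-fold lower, with a log2 change of -1.97 (SE 0.33, limma adjusted p = 3.60e-04). ABCC2 was at 70.8 and 74.5 CPM on vehicle and 31.1 and 30.0 on SM08502, 2.38-fold lower (-1.22, SE 0.17, adjusted p = 3.66e-05). ABCC4 was at 208 and 199 CPM on vehicle and 127 and 130 on SM08502 (-0.66, SE 0.15, adjusted p = 0.00525), which missed the threshold without HEC265 vehicle replicate 1 (-0.63, adjusted p = 0.0547). ABCC3 was at 18.9 and 18.2 CPM and then 12.4 and 11.8 (-0.58, adjusted p = 0.0391). That call was lost when any 1 of the 4 libraries was left out (adjusted p of 0.131 to 0.194). ABCC5 moved the other way, from 16.7 and 15.9 CPM to 28.7 and 25.2, 1.65-fold higher (0.69, SE 0.13, adjusted p = 9.42e-04). ABCC1, at 90.1 and 92.7 CPM against 124 and 117, did not pass (-0.40, SE 0.19, adjusted p = 0.175). It was called with the spread of HEC265 alone (adjusted p = 0.00439), without either Ishikawa paclitaxel library (0.0493) and after median re-centring (-0.49, adjusted p = 0.0260). ABCC10 did not pass either (0.35, SE 0.30, adjusted p = 0.549).

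RUNDC3B overlaps ABCB1 in the RefSeq annotation, and the strand used in counting is not given in the sources used here. In HEC265 RUNDC3B was at 0.45 and 0.42 CPM on vehicle and 0.45 and 0.54 on SM08502, under the level of ABCB1 in each of these libraries. ABCC10 overlaps DLK2 (0.62 to 3.77 CPM over all libraries) and ABCC5 overlaps the antisense gene ABCC5-AS1, so reads in the shared stretches may have gone to either gene. ABCB4, the neighbour and closest relative of ABCB1 and a phospholipid flippase of bile, held 0 and 1 reads in HEC265 on vehicle and 0 in both libraries on SM08502.

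In Ishikawa-S33Y, ABCC1 was at 115 and 112 CPM on vehicle and 57.4 and 50.7 on SM08502, 2.10-fold lower (-1.06, SE 0.19, limma adjusted p = 2.43e-04). These values lay on either side of the vehicle replicates of Ishikawa, at 53.2 and 55.3 CPM. ABCC4 was at 65.1 and 63.1 CPM and then 38.0 and 40.5 (-0.69, SE 0.15, adjusted p = 0.00175). ABCC3 was at 12.8 and 11.9 CPM and then 6.82 and 6.32 (-0.82, SE 0.19, adjusted p = 0.00227). For all 3 genes both libraries on SM08502 lay below both on vehicle. ABCB1 was at 20.6 and 21.8 CPM on vehicle and 21.2 and 20.1 on SM08502, with overlapping libraries (-0.04, SE 0.33, adjusted p = 0.957). ABCC2 was at 2.22 and 1.89 CPM and then 3.15 and 2.91 (0.40, SE 0.17, adjusted p = 0.0744).

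In Ishikawa, ABCC3 was at 14.6 and 14.3 CPM on vehicle and 10.8 and 7.97 on SM08502 (-0.58, SE 0.19, limma adjusted p = 0.0372). ABCG2 was at 2.40 and 2.23 CPM and then 1.45 and 1.34 (-0.47, SE 0.14, adjusted p = 0.0221), from 39 and 29 reads to 25 and 22. The libraries did not overlap for either gene. Neither call held without SM08502 replicate 2 (ABCC3 -0.38, adjusted p = 0.351; ABCG2 -0.44, adjusted p = 0.146), nor without vehicle replicate 1 (adjusted p of 0.134 and 0.115) or vehicle replicate 2 (0.137 and 0.0744). The SM08502 replicates of this line had length scores of -2.06 and -2.89. ABCB1 was at 40.2 and 36.9 CPM on vehicle and 34.3 and 30.3 on SM08502 (-0.25, SE 0.33, adjusted p = 0.675). ABCC5 was at 39.8 and 44.8 CPM against 32.2 and 34.5 (0.33, SE 0.13, adjusted p = 0.0872), and it was called without either Ishikawa paclitaxel library (0.0362).

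In SNGM, which received the highest dose, no member was called by limma. An unadjusted p under 0.05 was reached by 2 of 8, with no share of all genes at that level given here. ABCC2, at 10.4 and 11.5 CPM on vehicle and 6.65 and 7.90 on SM08502, came nearest (-0.54, SE 0.17, adjusted p = 0.0510), and it was called in several alternatives, such as without SNGM combination replicate 1 (adjusted p = 0.0325). ABCB1 was at 2.27 and 1.26 CPM and then 1.67 and 1.92, with overlapping libraries (0.04, SE 0.33). ABCC4 was at 430 and 370 CPM and then 274 and 350 (-0.36, SE 0.15, adjusted p = 0.173).

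The difference of the SM08502 change between the 4 lines was tested itself, by an F test in limma. It was called for ABCB1 (adjusted p = 0.0149), ABCC2 (adjusted p = 1.80e-04) and ABCC5 (adjusted p = 0.0274), against 12.4% of all genes. For ABCB1 the change was -1.97 in HEC265, beside -0.25 in Ishikawa, -0.04 in Ishikawa-S33Y and 0.04 in SNGM. Without HEC265 vehicle replicate 2 or HEC265 SM08502 replicate 2 the adjusted p for ABCB1 was 0.0841 and 0.0799, and with a pseudocount of 0.1 it was 0.302. For ABCC2 the estimates differed in sign, at 0.41 and 0.40 in the lines of Ishikawa origin and -0.54 and -1.22 in SNGM and HEC265. Only the ABCC2 change in HEC265 was itself called, and that in Ishikawa had a limma adjusted p of 0.0957. The call for ABCC5 was lost without any of 6 libraries: HEC265 vehicle replicate 1 (adjusted p = 0.0598) or 2 (0.0856), HEC265 SM08502 replicate 1 (0.103), SNGM vehicle replicate 1 (0.0711) or 2 (0.0704) and SNGM SM08502 replicate 1 (0.0991). For ABCC1, ABCC3, ABCC4, ABCC10 and ABCG2 the difference between lines did not pass (adjusted p of 0.0746 to 0.617). For ABCC1 and ABCC3 it passed without either Ishikawa paclitaxel library (adjusted p of 0.0156 and 0.0226) and after median re-centring (0.0139 and 0.0142).

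Averaged over the 4 lines with equal weight, 6 of the 8 members fell and 1 rose after SM08502, against 38.5% of all genes called, 15.8% lower and 22.6% higher. ABCC4 fell by 0.50 (SE 0.08, limma adjusted p = 2.46e-05), ABCC1 by 0.50 (SE 0.09, adjusted p = 2.09e-04), ABCC3 by 0.47 (SE 0.09, adjusted p = 4.26e-04) and ABCB1 by 0.55 (SE 0.17, adjusted p = 0.0118) on the log2 scale. ABCC1 and ABCC4 had negative estimates in all 4 lines and ABCC3 in 3. For ABCB1 HEC265 was the only line whose own change was called, and the mean was lost with a pseudocount of 0.1 (adjusted p = 0.198). ABCC2 (-0.24, adjusted p = 0.0293) and ABCG2 (-0.17, adjusted p = 0.0484) were called too, but lost their calls in 10 of 42 and 27 of 41 alternative settings, including many that left out 1 library, with adjusted p up to 0.193 and 0.781. ABCC2 had positive estimates in Ishikawa (0.41) and Ishikawa-S33Y (0.40). ABCG2 was at or under the floor of 3 reads in SNGM and HEC265 on vehicle and on SM08502. ABCC5 rose by 0.29 (SE 0.06, adjusted p = 0.00134), and ABCC10 did not pass (-0.05, SE 0.15, adjusted p = 0.833, 95% interval from -0.37 to 0.27). Of the epithelial markers, 5 of 7 fell and 0 rose in the mean over lines, where their median log2 change was -0.35, as for the 8 members. Line by line the 2 sets differed. The median of the epithelial markers was -0.76 in Ishikawa-S33Y, -0.41 in Ishikawa, -0.15 in HEC265 and 0.07 in SNGM. That of the members was -0.16, -0.27, -0.49 and -0.19 in the same order. After the combination 5 of the 7 fell and 1 rose over the lines, beside 20.1% of all genes lower and 29% higher. Their median was then -0.58, beside -0.39 for the members. The part of the epithelial markers in the transporter changes was not tested.

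After paclitaxel and SM08502 together, ABCB1, ABCC2, ABCC3 and ABCC4 fell and ABCC5 rose against vehicle in HEC265. Of 32 member tests 14 were called by limma, 11 lower and 3 higher, with 19.5% of all genes called in HEC265 (12.4% higher, 7.16% lower), 42% in Ishikawa-S33Y (24% and 18%), 22.8% in Ishikawa (11.6% and 11.2%) and 18.4% in SNGM (10.8% and 7.54%). In HEC265 ABCB1 was at 1.24 and 0.38 CPM on the combination, from 29 and 8 reads, 11.5-fold under vehicle (-2.55, SE 0.33, adjusted p = 1.58e-05). The ratio was 7.53-fold without combination replicate 2 and 24.5-fold without replicate 1. ABCC2 was at 26.0 and 17.2 CPM, 3.36-fold under vehicle (-1.73, SE 0.17, adjusted p = 4.57e-07). ABCC4 at 133 and 122 CPM (-0.68, adjusted p = 0.00308) fell and ABCC5 at 27.2 and 29.7 CPM (0.77, adjusted p = 2.30e-04) rose. ABCC3 at 13.1 and 10.3 CPM was called lower (-0.63, adjusted p = 0.0191), but not without combination replicate 2 (-0.47, adjusted p = 0.232), vehicle replicate 1 (0.112) or vehicle replicate 2 (0.0804).

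In Ishikawa-S33Y on the combination, ABCC1 was at 36.6 and 43.5 CPM (-1.48, SE 0.19, limma adjusted p = 2.62e-06), ABCC3 at 5.14 and 3.34 (-1.37, SE 0.19, adjusted p = 6.40e-06) and ABCC4 at 26.6 and 36.1 (-1.02, SE 0.15, adjusted p = 1.98e-05). ABCC2 rose from 2.22 and 1.89 CPM to 3.60 and 4.35 (0.70, SE 0.17, adjusted p = 0.00187), where replicate 2 is the shallow library and its value rests on 13 reads. All 4 calls held without the shallow libraries.

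In Ishikawa on the combination, ABCC3 was at 6.72 and 6.42 CPM (-1.03, SE 0.19, limma adjusted p = 5.46e-04). ABCG2 was at 0.92 and 1.42 CPM (-0.62, SE 0.14, adjusted p = 0.00259), and that call was lost without combination replicate 1 (-0.45, adjusted p = 0.0622). ABCC5 was at 44.7 and 43.6 CPM against 32.2 and 34.5 on vehicle (0.39, SE 0.13, adjusted p = 0.0327), and its call was lost when any 1 of the 4 libraries was left out (adjusted p of 0.0842 to 0.159). ABCC3 was lost when Ishikawa was fitted alone (adjusted p = 0.0797).

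In SNGM on the combination, ABCC1 was at 119 and 74.0 CPM (-0.59, SE 0.19, limma adjusted p = 0.0323) and ABCC2 at 8.20 and 6.84 (-0.49, SE 0.17, adjusted p = 0.0425). Replicate 2 was the shallow library of 1.61 M reads, with 119 reads of ABCC1 and 11 of ABCC2. Without it the changes were -0.25 (adjusted p = 0.508) and -0.38 (adjusted p = 0.264). The ABCC1 call was also lost without SNGM vehicle replicate 1 (adjusted p = 0.105) or 2 (0.144), and the ABCC2 call was lost in 24 of 43 alternative settings. ABCC10 was at 16.3 and 5.60 CPM (-0.82, SE 0.30, adjusted p = 0.0638), where the second value came from 9 reads. Without replicate 2 its change was -0.13 (adjusted p = 0.875), and without replicate 1 it was -1.52 (adjusted p = 1.61e-04). ABCB1 had 54 reads in replicate 1 and 0 in replicate 2, where the floor of 3 reads equals 1.87 CPM, so a level near that of vehicle was not measurable there.

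The combination was also compared with SM08502 alone, to see what adding paclitaxel did. None of the 32 member tests was called by limma, while 0.253% of all genes were called in SNGM, 0.129% in Ishikawa-S33Y, 0.00588% in HEC265 and 0% in Ishikawa. An unadjusted p under 0.05 was reached in 6 of the 32. The share of all genes at that unadjusted level is not given here, so this count has no background beside it. In HEC265 ABCB1 was at 1.87 and 1.41 CPM on SM08502 and 1.24 and 0.38 on the combination (-0.58, SE 0.33), with no overlap between the libraries. ABCC3 in Ishikawa-S33Y (-0.55, SE 0.19, adjusted p = 0.202) and ABCC2 in HEC265 (-0.51, SE 0.17, adjusted p = 1.00) had the next largest estimates outside SNGM. Leaving out SNGM combination replicate 1 raised the count of calls to 3, with the shallow library as the lone one of its group, and leaving out Ishikawa-S33Y combination replicate 1 raised it to 1. The comparisons with vehicle share their vehicle libraries, so their similarity is not counted here as a result.

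**Figure D3:**
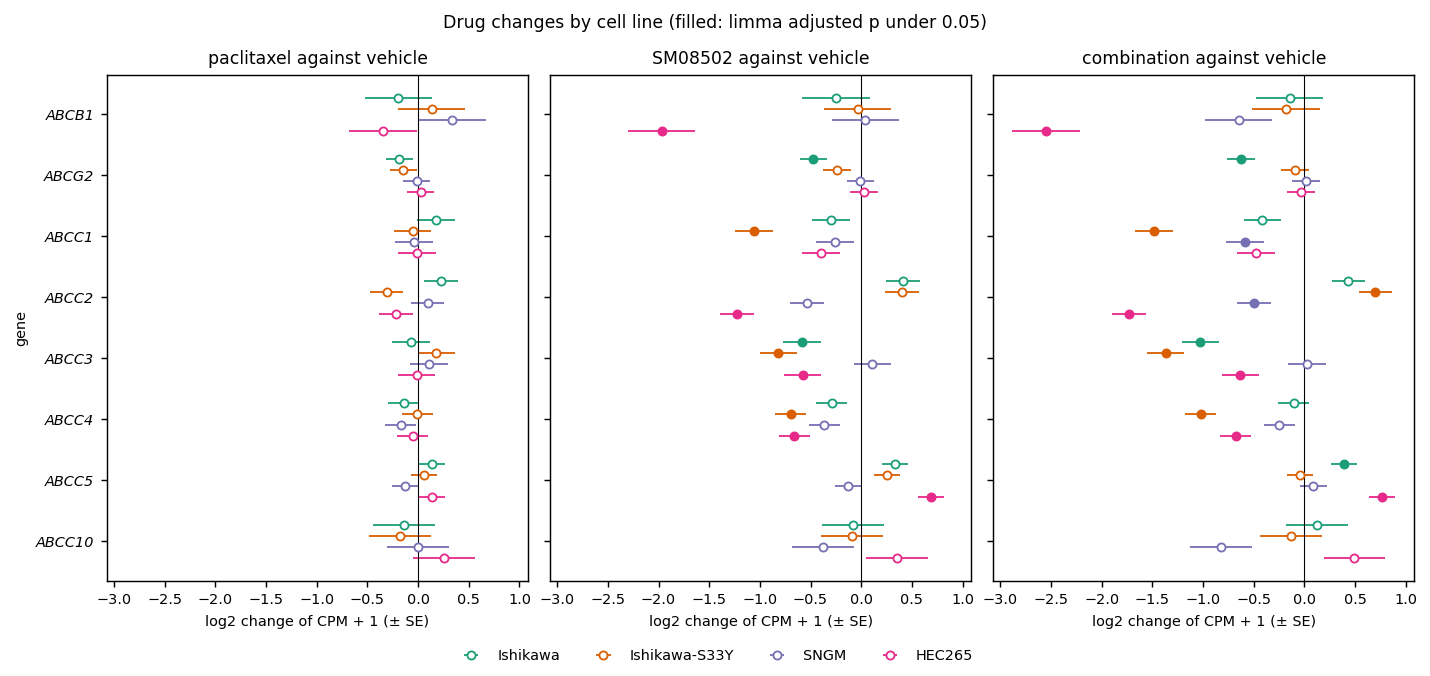
Log2 change of CPM + 1 against vehicle (horizontal axis, with bars of 1 SE) for each gene (vertical axis) and line (colour), in panels for paclitaxel, SM08502 and the combination, with filled points at a limma adjusted p under 0.05. All points of the paclitaxel panel are open and lie between -0.35 and 0.33, and the point farthest from 0 in the other panels is ABCB1 in HEC265, at -1.97 and -2.55.

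Over the lines, 6 members fell after the combination, 1 rose and ABCC10 did not pass (-0.08, SE 0.15), against 49.1% of all genes called, 20.1% lower and 29% higher. ABCB1 fell by 0.88 (SE 0.17, limma adjusted p = 1.74e-04), ABCC3 by 0.75 (SE 0.09, adjusted p = 1.18e-06) and ABCC1 by 0.74 (SE 0.09, adjusted p = 1.48e-06) on the log2 scale. For ABCB1 HEC265 was the only line whose own change was called (-2.55). Its estimates were -0.15 in Ishikawa, -0.18 in Ishikawa-S33Y and -0.65 in SNGM, where the shallow library held 0 reads of ABCB1. The fall of ABCG2 (-0.18, adjusted p = 0.0304) was lost in 12 of 41 alternative settings (adjusted p up to 0.756), among them leaving out vehicle replicate 1 of Ishikawa or HEC265 or 2 of Ishikawa-S33Y or SNGM, or combination replicate 1 of Ishikawa or Ishikawa-S33Y, 2 of SNGM, or either of HEC265 (adjusted p of 0.0501 to 0.0975). That of ABCC2 (-0.27, adjusted p = 0.00994) was lost with a pseudocount of 0.1 (adjusted p = 0.0697) and with voom on the recovered reads (0.194). The change after the combination differed between lines for 7 of 8 members by the F test, all but ABCC10, against 27.1% of all genes, and ABCC10 passed without SNGM combination replicate 1 (adjusted p = 6.35e-04). The adjusted p was 2.05e-06 for ABCC2, 0.00177 for ABCB1, 0.00277 for ABCC3, 0.00890 for ABCC5, 0.0104 for ABCC4, 0.0116 for ABCC1 and 0.0425 for ABCG2. The call for ABCG2 was lost in 21 of 41 alternative settings, and that for ABCC1 without Ishikawa-S33Y vehicle replicate 1 (adjusted p = 0.0532) or combination replicate 1 (0.0619).

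Of the other ABC genes, 40 were in the table and 35 passed the filter. After SM08502, averaged over lines, 3 of the 35 rose and 7 fell by limma (22.6% and 15.8% of all genes), with a median log2 change of 0.01 beside -0.35 for the 8 drug pumps and 0.05 for all genes. ABCA1, the cholesterol exporter, fell by 0.53 (SE 0.10, adjusted p = 1.90e-04). ABCA3, a lipid transporter of lung surfactant, fell by 0.43 (adjusted p = 0.0160). ABCA10 (0.78, SE 0.15, adjusted p = 2.85e-04), ABCF3 and ABCF2 (0.35 and 0.34, adjusted p of 0.00119 and 1.55e-04) rose, and the ABCF proteins have no membrane domain. After the combination 6 of the 35 rose and 8 fell (29% and 20.1% of all genes). ABCA2 fell by 0.74 (SE 0.16, adjusted p = 7.64e-04), and after paclitaxel 0 of the 35 were called.

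**Figure D4:**
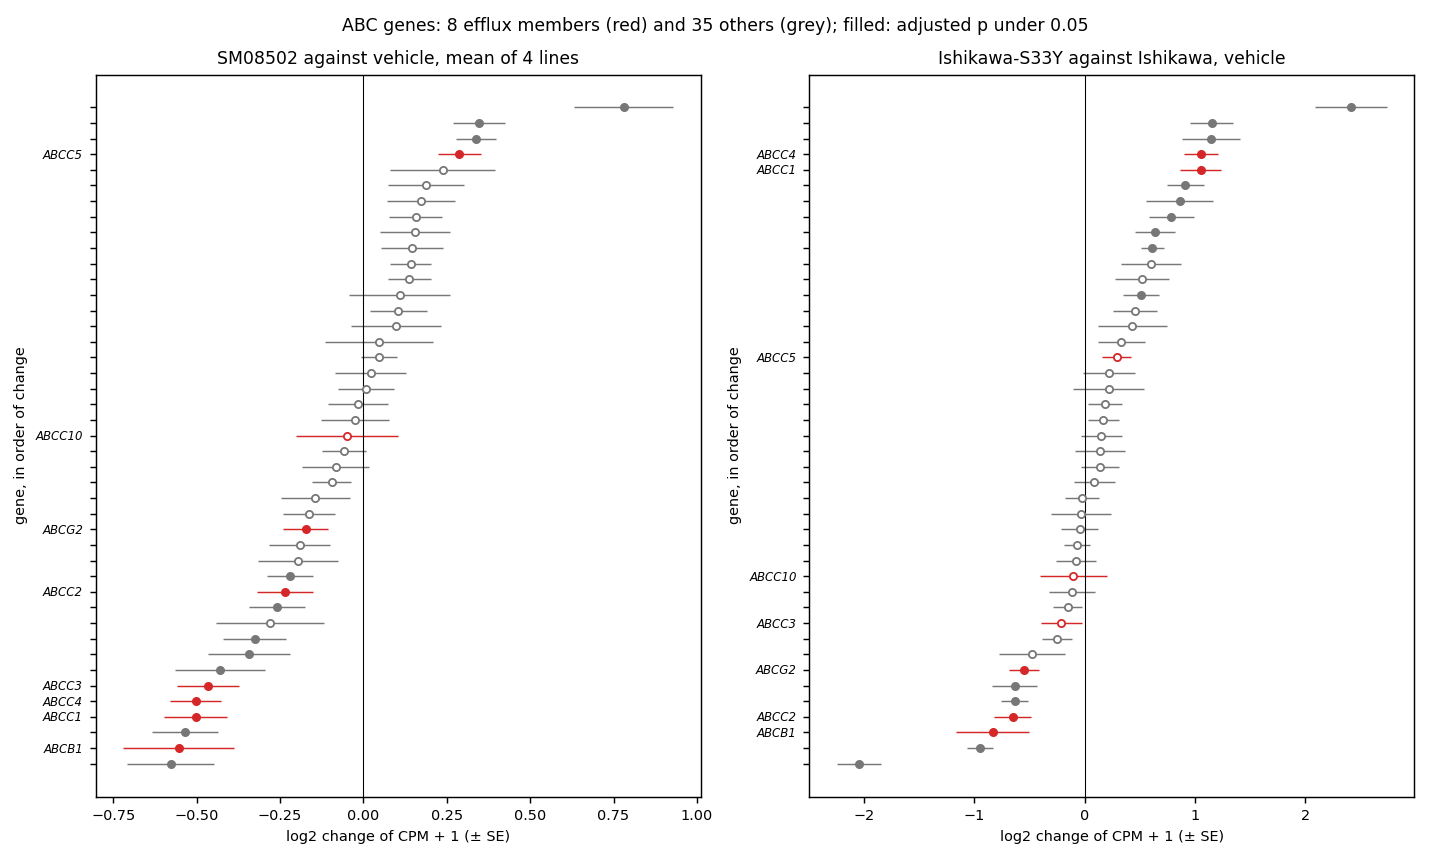
Log2 change of CPM + 1 (horizontal axis, bars of 1 SE) for the 8 efflux members in red and the 35 other ABC genes tested in grey (vertical axis, ordered by change, members labelled by name), for SM08502 averaged over lines on the left and Ishikawa-S33Y against Ishikawa on vehicle on the right, with filled points at a limma adjusted p under 0.05. On the left 6 red points are filled below 0 and 1 above, and on the right ABCA2 at 2.41 and ABCA12 at -2.04 are the extremes.

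Between Ishikawa-S33Y and Ishikawa on vehicle, 2 of the 8 members were called higher (ABCC1 and ABCC4) and 3 lower (ABCB1, ABCC2 and ABCG2), against 20% and 28.2% of all genes, and of the 35 other ABC genes 9 were higher and 4 lower. ABCA2, a lipid transporter, was higher by 2.41 (SE 0.33, limma adjusted p = 3.68e-06), and ABCA1 by 1.15. ABCA12, a lipid transporter of skin, was lower, at -2.04 (SE 0.20, adjusted p = 5.99e-08), and so were ABCD3 (-0.95) and ABCE1 (-0.63). The length score differed between these libraries, at -2.58 and -2.10 in Ishikawa and -1.06 and -1.19 in Ishikawa-S33Y, and stromal marker RNA was higher in Ishikawa-S33Y, with COL1A1 at 1158 and 1131 CPM against 109 and 158. Their part in the transporter differences was not tested, since the length covariate cannot separate the score from the line.

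Of 16 genes tested that regulate or anchor these pumps, 1 rose and 3 fell after SM08502 averaged over lines, beside 22.6% of all genes higher and 15.8% lower. After the combination 2 rose and 5 fell, beside 29% and 20.1%. The list's median log2 change was -0.06 after SM08502 and -0.09 after the combination, and that of all genes was 0.05 and 0.04. HIF1A (-0.31, SE 0.07, limma adjusted p = 0.00124), a transcription factor that has been linked to ABCB1, fell after SM08502, and so did RDX, radixin, which anchors membrane pumps to actin (-0.26, SE 0.06, adjusted p = 8.71e-04). NFE2L2, the oxidative stress factor NRF2, rose after the combination (0.20, SE 0.07, adjusted p = 0.0243). NR1I2, the xenobiotic receptor that induces ABCB1 in liver and gut, had at most 0.26 CPM in any vehicle library. In Ishikawa-S33Y against Ishikawa, EZR, the ezrin gene, was higher by 1.10 (SE 0.17), among 3 higher and 4 lower (20% and 28.2% of all genes).

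Of 8 genes of taxane uptake and metabolism, 5 passed the filter. SLCO1B3, an uptake carrier of taxanes, was at 44.2 CPM in both HEC265 vehicle replicates and at most 0.25 CPM in any vehicle library of the other lines. After SM08502 in HEC265 it was at 26.3 and 29.1 CPM (-0.66, SE 0.12, limma adjusted p = 7.70e-04), so the uptake carrier and the pumps ABCB1 and ABCC2 all fell in that line. CYP3A5, a drug-oxidising enzyme, was at 67.0 and 71.6 CPM in SNGM on vehicle and at 3.07 to 9.17 CPM in the other lines, and over lines it rose after SM08502 (0.28, SE 0.09, adjusted p = 0.0187). CYP3A4, CYP2C8 and SLC22A7 did not pass the filter and were not tested.

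Conjugate pumps of the ABCC group act downstream of glutathione enzymes. Of 21 glutathione and NRF2 target genes tested, 4 rose and 7 fell after SM08502 averaged over lines, beside 22.6% of all genes higher and 15.8% lower. After the combination 4 rose and 6 fell, beside 29% and 20.1%, and 0 were called after paclitaxel. The list's median log2 change was -0.09 after SM08502 and -0.10 after the combination. GSTM4 fell the most after SM08502 (-0.60, SE 0.10, limma adjusted p = 8.91e-05), and GSTT1, another glutathione transferase, rose (0.48, SE 0.14, adjusted p = 0.0104). In Ishikawa-S33Y against Ishikawa on vehicle 14 of the 21 were lower and 1, GSTM4, was higher (1.71, SE 0.20), beside 28.2% and 20% of all genes, with TXNRD1, thioredoxin reductase, at -1.15 (SE 0.12) and GSR, glutathione reductase, at -1.06 (SE 0.11). The list's median was -0.50 beside -0.05 for all genes, and the length score moved with this comparison. Of the 3 vault particle genes, MVP, the major vault protein also known as lung resistance protein, was at 132 and 128 CPM in SNGM on vehicle and at 2.52 to 5.21 CPM in the other lines. TEP1 rose (0.48, SE 0.12, adjusted p = 0.00361) and PARP4 fell (-0.40, SE 0.07, adjusted p = 1.11e-04) after SM08502.

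Over the 16 group means the members did not follow 1 pattern; these correlations are descriptions over groups that share lines. ABCB1 and ABCG2 were alike (Pearson r = 0.90), ABCC1 and ABCC4 were alike (0.87), and ABCB1 ran opposite to ABCC4 (-0.87). ABCG2 was at or under 4 reads in every SNGM and HEC265 library, so its correlations mainly set the lines of Ishikawa origin against the others. Among 12118 well expressed genes, the closest to ABCB1 were INSIG1 (0.97), a regulator of cholesterol synthesis, and METTL7A (0.96). The closest to ABCC1 were UGGT1 (0.99) and DNAAF5 (0.96), and the closest to ABCC4 were ATP11A and CYFIP1 (both 0.99). For ABCC2 they were ETHE1 and BACE2 (both 0.96), for ABCC3 ATP7B and KIAA1958 (both 0.98), for ABCC5 ZNF382 (0.99) and RIOK3 (0.98), for ABCC10 SEMA6C (0.93) and UBTD2 (0.91), and for ABCG2 BVES and MARCKSL1 (both 0.99).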

How the data were processed

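The authors deposited log10(CPM + 1) values, per the file headers and the values: back-transformed CPM summed to 1000000 in each library, and whole reads were recovered for 100% of values (tolerance 0.01 read). Per the submitters' processing notes, bcl2fastq, kallisto, STAR and GRCh38 were used; the roles, the annotation and the strand are not given in the sources used here. Values were taken to log2(CPM + 1), which understates changes of low genes. The 17011 genes over 1 CPM in 2 or more samples entered a limma fit (version 3.58.1 in R 4.3.3) of group means with an intensity trend, on 16 residual and 4.90 prior degrees of freedom. P-values were two-sided and adjusted by Benjamini-Hochberg within each of 28 contrasts. Depth was 13.0 to 34.1 M (1000000 reads) in 30 libraries and 2.99 and 1.61 M in the others. Groups came from the labels' titles. The procedure was tested on simulated data without line differences and with the same replicate spread setting for all genes and libraries. That simulation therefore does not cover uneven replicates such as those of Ishikawa on paclitaxel. Genes other than the 8 members were named as the largest changes of each list (up to 3 each way); results for 2 of them are not reported here, and they stay in the counts. The alternatives were 10 processing settings, leaving out the 2 shallow libraries, and leaving out each library. The members and lists were chosen with earlier results of these data known. Splicing tables were not used here. Gene symbols were used as deposited, and positions are RefSeq's.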

Additional observations from a re-analysis of the deposited data

Results flagged for a closer look

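The drug change differed between the 4 lines for the following results, by the limma F test with p adjusted over all genes. For SM08502 these were ABCB1 (adjusted p = 0.0149; -0.25 in Ishikawa, -0.04 in Ishikawa-S33Y, 0.04 in SNGM, -1.97 in HEC265), ABCC2 (1.80e-04; 0.41, 0.40, -0.54, -1.22) and ABCC5 (0.0274; 0.33, 0.26, -0.13, 0.69). For the combination they were ABCB1 (adjusted p = 0.00177; -0.15, -0.18, -0.65, -2.55), ABCC1 (0.0116; -0.41, -1.48, -0.59, -0.47), ABCC2 (2.05e-06; 0.44, 0.70, -0.49, -1.73) and ABCC3 (0.00277; -1.03, -1.37, 0.03, -0.63). They were also ABCC4 (0.0104; -0.10, -1.02, -0.25, -0.68), ABCC5 (0.00890; 0.39, -0.05, 0.09, 0.77) and ABCG2 (0.0425; -0.62, -0.09, 0.02, -0.03). The log2 changes are in the order given for ABCB1, and the doses differed by line. ABCG2 was at or under 4 reads in every SNGM and HEC265 library.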

How the results depend on the processing

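No called change of a member changed sign in the 41 to 43 alternatives run for it (ABCG2 fails the stricter filter, and means over lines have no fit to a line alone): of 77 called, 53 kept the call in all and 24 lost it in some. Of 123 that were not called, 59 changed sign and 21 were called in some. Counts of calls stayed within 1.5 times except that those of the means over lines fell from 14 to 9 with a pseudocount of 0.1, and that 1 member in place of 0, ABCC10, separated by paclitaxel dose under quantile normalization. Leaving out a library gave 0 to 3 calls for the combination over SM08502 and 0 to 1 members separated by dose. Differences that were not called turned with the length score as a covariate: ABCB1 on the combination in Ishikawa-S33Y to 0.00458, ABCC10 in SNGM minus Ishikawa to -0.849, ABCC3 in HEC265 minus Ishikawa to -0.225, and ABCC1 in SNGM and in HEC265 minus Ishikawa-S33Y to -0.138 and -0.157. ABCC1 in HEC265 minus Ishikawa-S33Y was -0.140 under quantile normalization. The cause was not tested. Median re-centring moved the median of all genes by -0.108 for the combination in HEC265.

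With a replicate block, calls were 10 for SM08502, 14 for the combination, 0 for paclitaxel, 0 for the combination over SM08502, 14 for the means, 11 for the differences between lines and 38 for the pairs of lines. Same-numbered replicate differences correlated at -0.589 to 0.853 across genes, so the numbers did not pair the samples throughout. ABCG2 in SNGM and HEC265, and low genes in the 2 shallow libraries, are limited by depth.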
